A study of Mus musculus with 6 samples.

Results

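In MC38 tumor cells, 10 genes that mark simple epithelium or gut epithelium were followed: the keratins Krt7, Krt8, Krt18, Krt19 and Krt20, the surface proteins Epcam, Cdh1 and Muc1, the microvillus protein Vil1 and the transcription factor Cdx2. They were chosen by symbol, as genes that report on the colon epithelial identity of the tumor line, and all 10 were among the 52636 genes measured. MC38 is a cell line from a mouse colon adenocarcinoma. Cells of its M1E5 derivative were injected under the flank skin of female mice aged 6 to 10 weeks together with Matrigel, and RNA was sequenced from tumor cells sorted from the digested tumors. The control group was M1E5-Thy1.1 and the other group was MC-38 M1E5-Zfx-KO-Thy1.2, in which the X-linked zinc finger factor Zfx had been targeted with a CRISPR ribonucleoprotein. Neither group received a treatment. The Thy1 form changed together with the genotype, so their effects cannot be told apart. The design speaks of knockout clones without saying how many clones entered these libraries, and the marker used for the sort is not given.

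Both groups had 3 libraries. Control depth was 42392848 to 42962578 reads, and depth in the edited group was 37763096 to 65050908 reads. Whether libraries of a group were from different mice is not stated, so a p-value here covers library-to-library spread that may be technical. Zfx RNA was higher, and not lower, in the group labelled Zfx-KO. Its level was 5.67 ± 0.21 log2 CPM (reads scaled to library size, on a log2 scale, SD, n = 3) in controls and 6.31 ± 0.09 in that group. The difference was 0.64 (SE 0.10, limma adjusted p = 0.000473), and the position of the edit within the gene is not given. All directions given are therefore those of the group with that label, written Zfx-KO.

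Keratins build the intermediate filaments of epithelial cells as obligate pairs of a type I and a type II chain. Krt8 (type II) and Krt18 (type I) form the first pair of simple epithelia, Krt19 and Krt20 join it in the gut lining, and Krt7 belongs to ducts and many other simple epithelia. Epcam and Cdh1 (E-cadherin) join epithelial cells to one another, Muc1 coats their free surface, Vil1 (villin) bundles actin in the brush border, and Cdx2 is the homeobox factor that sets intestinal identity. Zeb and Snail family repressors are known to silence Cdh1 and other epithelial genes through the E-box CACCTG of their promoters.

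The promoters of 3 of the genes are shown for reference. They are the keratin with the largest difference between the groups, its pair partner, and the surface mucin with the highest level in the controls. Each window runs from 250 bases before to 50 bases after the gene start in RefSeq (GRCm38.p6), read 5′ to 3′ on the gene's strand. Capitals mark CACCTG or its reverse complement, and the core TTTAT of the CDX factors or its reverse complement, which can overlap the letters TATAAA of a TATA box.
Krt8 promoter, chr15:102004293-102004592, minus strand: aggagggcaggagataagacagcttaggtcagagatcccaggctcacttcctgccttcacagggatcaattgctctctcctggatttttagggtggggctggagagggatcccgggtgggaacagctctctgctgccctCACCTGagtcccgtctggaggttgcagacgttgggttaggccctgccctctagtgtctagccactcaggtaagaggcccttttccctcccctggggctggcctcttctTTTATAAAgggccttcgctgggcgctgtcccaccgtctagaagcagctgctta
Krt18 promoter, chr15:102027966-102028265, plus strand: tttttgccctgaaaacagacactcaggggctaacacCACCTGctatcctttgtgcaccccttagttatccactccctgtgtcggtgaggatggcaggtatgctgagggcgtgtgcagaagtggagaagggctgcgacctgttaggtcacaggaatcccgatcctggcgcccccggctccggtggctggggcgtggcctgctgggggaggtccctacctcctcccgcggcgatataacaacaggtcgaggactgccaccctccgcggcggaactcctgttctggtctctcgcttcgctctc
Muc1 promoter, chr3:89228806-89229105, plus strand: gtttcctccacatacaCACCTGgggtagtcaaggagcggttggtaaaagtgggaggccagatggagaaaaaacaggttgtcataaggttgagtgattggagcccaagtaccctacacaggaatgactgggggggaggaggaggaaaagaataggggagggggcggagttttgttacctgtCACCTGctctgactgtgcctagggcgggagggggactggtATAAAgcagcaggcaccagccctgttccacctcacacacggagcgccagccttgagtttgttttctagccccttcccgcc

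A promoter was given for 8 of the 10 genes, and those of Cdh1 and Krt19 were not among them. The E-box was found on either strand in 6 of the 8 (Vil1, Muc1, Krt7, Krt8, Krt18 and Epcam) and in 20.2% of all 32851 promoters of the same length. The CDX core was found in 5 of the 8 and in 40.0% of all promoters. TATAAA, searched on the gene's strand after the sequences had been seen, was present in Muc1, Krt20 and Krt8 and in 8.32% of all promoters. The core AGGCCT of the ZFX motif was found on neither strand of any of the 8, against 10.3% of all promoters. A match describes the letters in the window and does not show that a factor binds there.

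The controls held almost no RNA of the genes that define colon epithelium. Cdx2 had 0 reads in all 6 libraries, which in a library allows up to 0.0461 to 0.0794 CPM (3 reads). Over the 3 control libraries together, Krt18 and Krt20 had 0 reads, Epcam 1, Krt19 and Vil1 2 each, Krt7 3 and Krt8 5. No control library had more than 3 reads of any of these genes, and the 5 keratins together had 10 reads in all 3 control libraries. Muc1 with 277 reads and Cdh1 with 180 were the exceptions. The labelled colon epithelial origin was therefore not visible in Cdx2, Epcam, Vil1 or the simple keratins of the control cells. Here and in all that follows, a bulk library cannot tell apart fewer cells of a type and less RNA per cell.

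In Zfx-KO, Krt8 rose from near 0 to a level above most protein-coding genes, Krt19 rose by far fewer reads, and Muc1 was slightly higher. Of the 10 genes, 6 had enough reads to be tested in the fit over 20094 genes: Krt7, Krt8, Krt19, Cdh1, Vil1 and Muc1. Krt8, Krt19 and Muc1 passed as higher, 3 of 6, where 24.9% of all tested genes were higher. None of the 6 was lower with limma, also at an unadjusted p under 0.05 and with limma voom on the recovered reads (0 genes each), where 19.5% of all tested genes were lower. In either direction, 44.4% of all tested genes passed, so a call by itself is common in this comparison. The groups did not overlap in 5 of the 6 tested genes (all but Cdh1), where 54.1% of all tested genes did not overlap, and of the 4 untested genes they did not overlap in Krt20. The filter asked, besides a minimum mean, for reads in 3 or more libraries. Krt8, Krt19 and Vil1 met this only with the Zfx-KO libraries counted, whereas Krt7, with 1 read in each control, met it in the controls. Counts over the genes that passed the filter are therefore given as description. Without any filter 1 of the 10, Krt8, was higher.

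**Figure D1:**
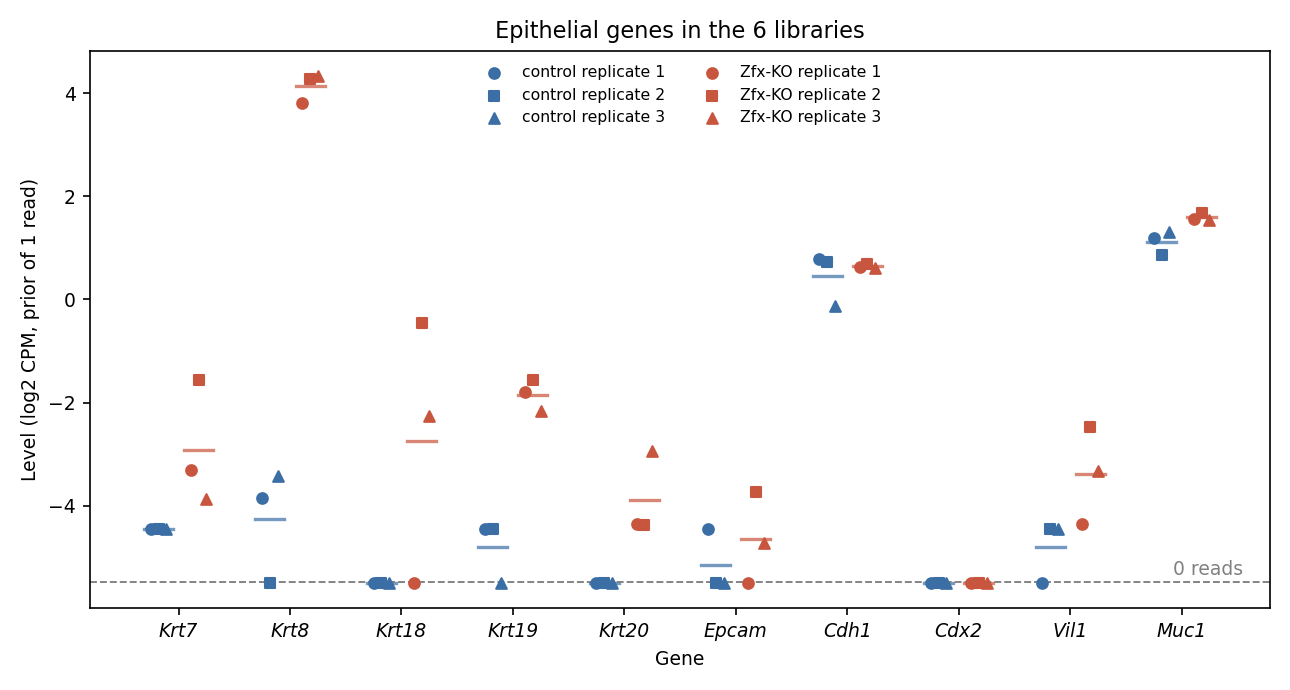
Level of each of the 10 genes (log2 CPM with a prior of 1 read, vertical axis) in the 3 control libraries (blue) and the 3 libraries labelled Zfx-KO (red), with a bar at each group's mean and a dashed line at 0 reads. Krt8 lies near the dashed line in the controls and at 3.80 to 4.33 in Zfx-KO, Muc1 and Cdh1 lie well above it in both groups, and Cdx2 lies on it in all 6 libraries.

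Krt8 (ENSMUSG00000049382, chr15:101996711-102004342, minus strand) had 2, 0 and 3 reads in the control libraries and 524, 738 and 1309 in the Zfx-KO libraries. Every Zfx-KO library stood far above every control, and the Zfx-KO libraries lay close together once scaled to depth. Its level was -4.26 ± 1.09 log2 CPM in the controls and 4.13 ± 0.29 in Zfx-KO (SD, n = 3 each), or 0.0391 ± 0.0358 and 17.8 ± 3.4 CPM. The log2 difference was 8.39 (SE 0.47, limma adjusted p = 5.66e-07). Over all reads the ratio was 467-fold, with an exact 95% interval of 200 to 1439 for counting error. The size of the log2 difference depended on the prior, at 9.28 with a prior of 0.25 reads and 7.14 with 4 reads, and ranged from 7.77 to 8.80 when single libraries were left out.

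Part of the Krt8 sequence is shared with a processed pseudogene, Krt8-ps (chr7:23357125-23358069), which was looked up after the values had been seen. Of the 1909 windows of 50 bases in Krt8 transcripts, 70.3% were found in no other annotated gene, and 514 were shared with Krt8-ps. Krt8-ps had 0 reads in the 3 controls and 58, 131 and 213 in Zfx-KO, at least 122-fold higher than a floor of 3 reads in the whole control group (limma adjusted p = 1.06e-06). Reads of both genes cannot be told apart where their sequences match, and how shared reads were counted is not given. Both counts moved in the same direction.

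Krt18 (ENSMUSG00000023043, chr15:102028216-102032026, plus strand), the usual type I partner, did not follow Krt8 in every library. It had 0 reads in all 3 controls and 0, 27 and 12 reads in the Zfx-KO libraries. The first Zfx-KO library thus had 524 reads of Krt8 and none of Krt18, and the groups overlapped at 0. Over all reads Krt18 was at least 11.8-fold higher in Zfx-KO, set against that same floor. It did not reach the filter, and with no filter its limma adjusted p was 0.595. The exact two-sided permutation p over the 3 and 3 libraries was 0.4, where 0.1 is the smallest these groups allow. The difference of 2.75 on the log2 scale was 1.61 without the second Zfx-KO library, which held most of the reads. Of 1388 windows of Krt18, 99.3% were found in no other annotated gene.

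Krt8 and Krt18 are neighbours, 23873 bases apart, and the genes around them differed in both directions. The window of 100 kb around the pair held 8 genes, all protein-coding. Of the 5 others that were tested, Krt78 rose by 2.93 log2 units (adjusted p = 0.00149) and Tns2, a focal adhesion protein, by 1.09 (9.88e-06). Eif4b, a translation initiation factor, was higher by 0.23 (adjusted p = 0.00742), Spryd3 fell by 0.28 (0.0106), and Krt79 did not pass (1.09, 0.314), all with limma. Krt4, the last, had 1 read in the controls and 2 in Zfx-KO.

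Krt19 (ENSMUSG00000020911, chr11:100140810-100146120, minus strand), the smallest keratin and one with no tail domain, had 1, 1 and 0 reads in the controls, against 10, 12 and 13 in Zfx-KO. The groups did not overlap and the Zfx-KO libraries were close to one another. Its level was -4.80 ± 0.60 log2 CPM in the controls and -1.85 ± 0.30 in Zfx-KO (SD, n = 3 each), a difference of 2.95 (SE 0.51, limma adjusted p = 0.000935). The ratio over all reads was 15.9-fold with an exact 95% interval of 4.08 to 136. The call ended when no filter was used (adjusted p = 0.0701).

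Krt7 and Krt20 stayed at a few reads per library. Krt7 (ENSMUSG00000023039, chr15:101412402-101430313, plus strand) had 1 read in each control and 3, 12 and 3 reads in Zfx-KO. All 3 Zfx-KO libraries were above the controls, with the second the highest. The log2 difference of 1.54 (SE 0.64) did not pass with limma (adjusted p = 0.0785). It was 0.87 without the second Zfx-KO library, and 2.02 with an adjusted p of 0.0441 without the third.

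Krt20 (ENSMUSG00000035775, chr11:99428403-99438150, minus strand), a keratin of the mature intestinal surface, had 0 reads in the controls, against 1, 1 and 7 in Zfx-KO. Over all reads it was at least 2.72-fold higher than the floor of 3 reads. The groups did not overlap, but the gene did not reach the filter, and its limma adjusted p with no filter was 0.128. The exact two-sided permutation p was 0.1 for Krt7, Krt8, Krt19 and Krt20 alike, the smallest that 3 libraries against 3 can give.

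Muc1 (ENSMUSG00000042784, chr3:89229057-89233381, plus strand) was the most abundant of the 10 genes in the controls. It had 96, 77 and 104 reads in the controls, against 110, 122 and 188 in Zfx-KO, which gave 1.19, 0.86 and 1.30 against 1.55, 1.68 and 1.54 log2 CPM. All Zfx-KO libraries lay above all controls by a narrow margin. The means were 1.12 ± 0.23 and 1.59 ± 0.08 (SD, n = 3 each), a difference of 0.48 (SE 0.18, limma adjusted p = 0.0489). The ratio over all reads was 1.38-fold, with an exact 95% interval of 1.18 to 1.61. This call was at the threshold and ended under 9 of 13 alternative settings, among them equal medians (0.26, adjusted p = 0.26) and quantile normalization (0.08, 0.723).

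Cdh1 (ENSMUSG00000000303, chr8:106603351-106670246, plus strand) did not differ detectably between the groups. It had 72, 70 and 38 reads in the controls, against 57, 61 and 98 in Zfx-KO. In log2 CPM these were 0.78, 0.72 and -0.13 against 0.62, 0.69 and 0.61, so the Zfx-KO libraries lay inside the range of the controls. The difference of 0.18 (SE 0.27) did not pass with limma (adjusted p = 0.621). Its sign turned under equal medians (-0.03), under quantile normalization (-0.33) and without the third control library (-0.11), which was the lowest.

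Epcam and Vil1 remained near the limit of detection in both groups. Epcam (ENSMUSG00000045394, chr17:87635979-87651106, plus strand) had 1, 0 and 0 reads in the controls, against 0, 2 and 1 in Zfx-KO, and the ratio of 2.72 had an exact 95% interval of 0.219 to 143. A difference was not detectable at this depth. Vil1 (ENSMUSG00000026175, chr1:74409376-74435559, plus strand) had 0, 1 and 1 reads in the controls, against 1, 6 and 5 in Zfx-KO. Its log2 difference of 1.41 (SE 0.65) did not pass with limma (adjusted p = 0.107), although it was 1.89 with an adjusted p of 0.0433 without the first Zfx-KO library. Vil1 overlaps Usp37 on the other strand, a gene with 10394 reads in the controls and 10612 in Zfx-KO, and without stated strand its few reads may belong to either.

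Levels can be set beside each other across genes when divided by exon length. In RPKM (CPM per kilobase of exon, mean ± SD, n = 3), the controls were led by Muc1 at 0.965 ± 0.148, followed by Cdh1 at 0.317 ± 0.101. Both stood clear of the next gene, while Krt8 at 0.0217 ± 0.0198, Krt19, Krt7, Vil1 and Epcam overlapped with their neighbours in the order. In Zfx-KO, Krt8 came first at 9.84 ± 1.88, then Muc1 at 1.34 ± 0.0748 and Cdh1 at 0.347 ± 0.0114. Krt8 did not overlap with Muc1, nor Muc1 with Cdh1, whereas Cdh1, Krt18 at 0.212 ± 0.262 and Krt19 at 0.165 ± 0.0363 overlapped in turn. Krt7, Vil1, Krt20 and Epcam followed at 0.0358, 0.0278, 0.0277 and 0.0111.

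Against all 22027 protein-coding genes the same order appeared. Krt8 was above 39.7% of them per length in the controls, where 30.3% had no reads at all, and above 71.9% in Zfx-KO. Muc1 was above 53.2% and 53.5%, and Cdh1 above 49.2% and 47.2%. The median of the coding genes that had any read in Zfx-KO was 4.85 RPKM, below the Krt8 level in each of the 3 libraries, the lowest of which was 7.69.

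The other keratins showed where Krt8 stood in its family. Of 44 other keratin genes in the table, 15 were tested, 9 were higher and 0 were lower in Zfx-KO with limma (0 lower also at an unadjusted p under 0.05 and with voom). Their median log2 difference was 1.16, against 0.09 over all tested genes. As with the genes above, scarce keratins could pass the filter through the group in which they were high, and 33 of the 44 had at most 3 reads in all controls together. With no filter 4 of them were higher. Reads of Krt6a and of the close paralogs Krt14, Krt16, Krt17 and Krt42 are uncertain where these share sequence.

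Krt14, the type I keratin of basal cells in stratified epithelia, had 98, 77 and 127 reads in the controls, against 1229, 2042 and 3165 in Zfx-KO. All Zfx-KO libraries were far above the controls, and the log2 difference was 4.24 (SE 0.21, limma adjusted p = 2.67e-07). Krt5, its usual type II partner, rose by 2.78 (adjusted p = 0.0002), from 25, 20 and 9 reads to 80, 147 and 176. Krt6a, a keratin of wounded and hair-follicle epithelium, rose by 3.52 (adjusted p = 9.85e-05), and Krt1, of differentiating epidermis, by 3.54 (0.00131) on 3 and 61 reads. The call of Krt1 ended with no filter (adjusted p = 0.0695), as did that of Krt78 (0.0684). Krt10, the partner of Krt1, was higher by 0.42 (adjusted p = 0.0282), a call that ended under equal medians (0.21, 0.231).

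Per length, Krt14 at 26.4 ± 6.44 RPKM and Krt8 at 9.84 ± 1.88 were the highest 2 of 49 keratin genes in Zfx-KO. In the controls the highest was Krt10 at 2.41 ± 0.301, and Krt8 ranked 12. Krt8 made up 69.8, 74.6 and 77.3% of the summed RPKM of the 24 type II keratins in the Zfx-KO libraries, against 3.1, 0 and 4.79% in the controls. The summed type II keratins were 0.786 ± 0.0731 RPKM in the controls and 13.3 ± 1.95 in Zfx-KO, and the 24 type I keratins 6.34 ± 0.542 and 34.9 ± 7.09. Krt14 made up 70.8, 77.0 and 77.7% of the type I sum in Zfx-KO. Krt18 reached 0.504 RPKM and Krt19 0.199 in their highest library.

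**Figure D2:**
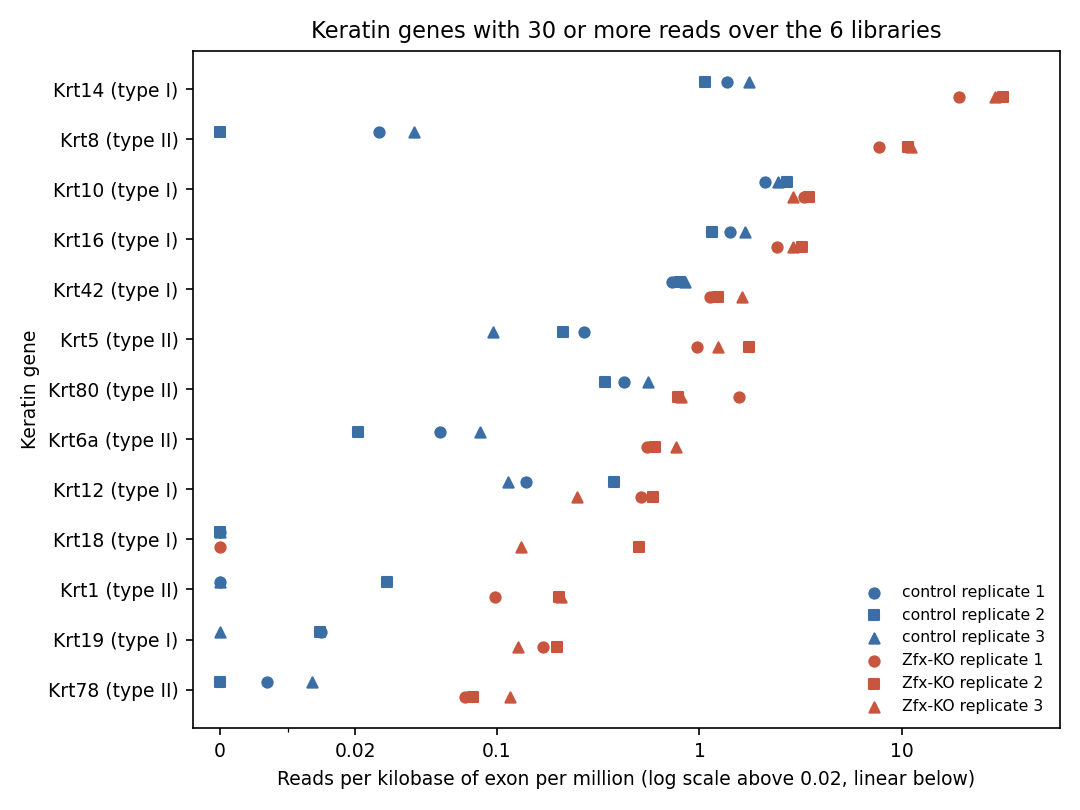
RPKM (horizontal axis, log scale above 0.02 and linear below) of the keratin genes with the most reads, one row per gene, in the 3 control libraries (blue) and the 3 libraries labelled Zfx-KO (red). Krt14 and Krt8 lie furthest right in Zfx-KO at means of 26.4 and 9.84, and Krt18 is at 0 in all controls and in 1 Zfx-KO library.

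Genes that work with the 10 were counted in lists of related function, to be read against the 24.9% higher and 19.5% lower of all tested genes and their median of 0.09. Among 15 other intermediate filament genes, 10 were tested, 5 were higher and 3 lower, with a median of 0.98. Des, the muscle filament desmin, rose by 3.85 (adjusted p = 2.1e-06) and Synm, which assembles with it, by 3.17 (0.000304). Nes, the filament of progenitor cells, fell by 0.79 (adjusted p = 2.81e-05) and the nuclear lamin Lmnb1 by 0.67 (1.02e-05). Vim, the filament of mesenchymal cells, was lower by a small margin and abundant throughout, at 2029 ± 104 RPKM in the controls and 1649 ± 147 in Zfx-KO (SD, n = 3 each, limma adjusted p = 0.0179), a call that ended under 4 of 13 settings. Every one of the 10 epithelial genes was thus far below Vim per length in both groups.

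Of 17 genes of desmosomes and keratin anchoring, 16 were tested, 7 were higher and 2 lower, with a median of 0.59. Itgb4, the hemidesmosome integrin that ties keratins to the basement membrane, had 480, 611 and 741 reads in the controls, against 4954, 7472 and 12875 in Zfx-KO. Its log2 difference was 3.61 (SE 0.18, limma adjusted p = 2.41e-07). Jup (plakoglobin) was higher by 0.79 (adjusted p = 0.00115) and Tchp, a keratin-binding protein, by 0.59 (0.000116), whereas Pkp4 fell by 0.76 (9.32e-06). The call of Jup ended with no filter (adjusted p = 0.0757). Dsp, the desmoplakin that anchors keratins at desmosomes, stayed at 16, 3 and 10 reads against 6, 7 and 8. With no filter 2 were higher and 1 lower.

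Of 30 partners of E-cadherin and EpCAM, 26 were tested, 6 were higher and 5 lower, with a median of 0.50. Those counts were near the shares over all tested genes and say nothing particular of the list. Ctnnd1 (p120 catenin) was higher by 0.50 (adjusted p = 0.000822), while Tjp1 fell by 0.44 (0.000665) and Cldn12 by 0.56 (0.000305). Cldn7, which binds EpCAM directly, had 3 reads in 1 control library and 0 in the other 5 libraries.

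Of 9 repressors of epithelial genes, 8 were tested, 2 were higher and 2 lower, with a median of 0.05, also near the shares over all tested genes. Snai2 (Slug) had 1039, 1032 and 926 reads in the controls, against 149, 170 and 250 in Zfx-KO, and fell by 2.51 log2 units (SE 0.10, limma adjusted p = 8.31e-08). Zeb1 was higher by 0.31 (adjusted p = 0.00144) and Snai1 by 0.32 (0.00592), and Twist2 was lower by 0.26 (0.0172). Under equal medians neither Zeb1 (0.10, adjusted p = 0.174) nor Snai1 (0.11, 0.343) passed, and the call of Twist2 ended under 5 of 13 settings, among them no filter (0.0704). Of 20 epithelial transcription and splicing factors, 12 were tested, 1 was higher and 2 lower, with a median of 0.28. Klf4 was higher by 0.51 (adjusted p = 0.00156), Klf5 fell by 0.81 (0.00114) and Trp63, the basal cell factor p63, fell by 1.23 (0.0271) on 46 and 20 reads. The call of Trp63 ended under 5 of 13 settings, no filter (adjusted p = 0.0758) and 4 of the 6 libraries left out singly, and that of Klf4 ended with no filter (0.0729). Esrp1, the epithelial splicing regulator, had 0 reads in the controls, against 0, 1 and 3 in Zfx-KO.

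The gut programs beside Cdx2 and Vil1 were mostly scarce. Of 17 gut transcription factors, 9 were tested, 4 were higher and 2 lower, with a median of 0.17. Hnf4a, Hnf4g and Spdef had 0 reads in all 6 libraries, and Creb3l3, a liver and gut factor of lipid metabolism, rose by 2.97 (adjusted p = 0.000189) from 12 reads to 124. Onecut2 was higher by 1.38 (adjusted p = 0.000134) and Vdr, the vitamin D receptor, by 0.69 (0.000291). Of 37 microvillus, enterocyte and colonocyte genes, 20 were tested, 7 were higher and 2 lower, with a median of 0.39. These counts depended on the scaling, with 6 higher and 6 lower under equal medians. Quantile normalization gave 5 higher and 6 lower. The peptidases Dpp4 and Anpep rose by 7.05 (adjusted p = 9.42e-06, from 7 reads to 1056) and 4.04 (1.97e-05), and the scaffold Slc9a3r1 rose by 1.79 (9.71e-08). Espn, an actin bundler like villin, fell by 2.03 (adjusted p = 5.29e-07). Another 9 of the 37 had 0 reads everywhere, among them the fatty acid carriers Fabp1 and Fabp2, the phosphatase Alpi and the chloride exchanger Slc26a3.

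Of 28 mucin and secretory genes, 9 were tested and 0 were called with limma in either direction, also at an unadjusted p under 0.05 and with voom, with a median of -0.02. The enzymes St3gal1 and Gcnt1, which build sugar chains on mucins, differed by -0.02 (adjusted p = 0.758) and -0.13 (0.256). Under equal medians 3 genes of the list were lower, among them St3gal1 (-0.24, limma adjusted p = 0.0138) and Gcnt1 (-0.34, 0.00472). Without the third control library 1 was lower. Tff1, Tff2, Tff3, Agr2 and Muc5b were among 9 with 0 reads in all libraries. Of 14 gut stem cell genes, 13 were tested, 6 were higher and 5 lower, with a median of 0.42. Smoc2 rose by 7.59 (adjusted p = 2.15e-07, from 2 reads to 987), Lgr5 had 0 reads in the controls, against 44, 68 and 107 in Zfx-KO (1.45e-06), and Ephb2 fell by 1.06 (4.35e-06). Znrf3, an inhibitor of Wnt receptors, fell by 0.65 (adjusted p = 2.88e-05).

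**Figure D3:**
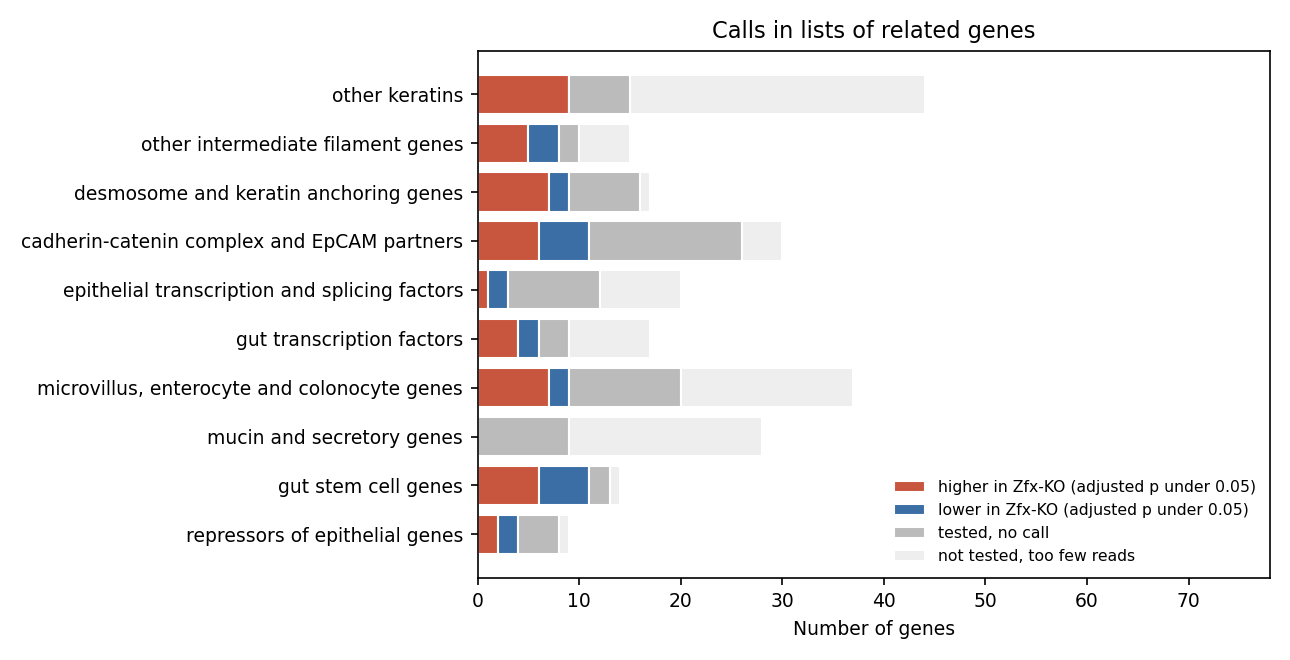
Number of genes in each list of related function (horizontal axis) that were higher in libraries labelled Zfx-KO (red), lower (blue), tested without a call (grey) or not tested for too few reads (light grey), by limma at an adjusted p under 0.05. Other keratins hold 9 higher and 0 lower, and mucin and secretory genes hold no call.

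Markers of other cell types that a sort of digested tumors can hold moved between the groups as well, and they are given as sums of CPM, from the lowest to the highest library. Colon epithelial markers, which include Krt8, Krt19 and Cdh1, went from 2.88 to 3.92 in the controls to 17.3 to 23.5 in Zfx-KO. Krt8 itself carried this rise, with 13.9, 19.3 and 20.1 CPM of sums of 17.3, 23.4 and 23.5 in the Zfx-KO libraries. Of 7 tested genes 2 were higher, Krt8 and Krt19, and Cdx2 was at 0. Lgals4, a galectin of the gut lining, had 229 reads in the controls and 184 in Zfx-KO and did not pass (-0.45, limma adjusted p = 0.113). Keratinocyte markers went from 8.09 to 9.1 to 43.1 to 65.9, with 5 of 7 tested higher and 1 lower. Krt14 alone held 32.5, 53.4 and 48.7 CPM of the Zfx-KO sums of 43.1, 65.9 and 59.1. The defining late markers Ivl and Lor had 0 reads in all 6 libraries. Mammary epithelial markers went from 0.609 to 1.11 to 2.17 to 4.21, with Krt5 higher of 3 tested and the milk proteins Csn2, Wap and Lalba at 0. Nearly all of the Zfx-KO sums of 2.17, 4.21 and 2.89 was Krt5, at 2.12, 3.85 and 2.71 CPM. The other tested genes, Prlr (-1.73, limma adjusted p = 0.102) and Areg (-0.94, 0.305), did not pass.

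Mesothelial cells also make Krt7, Krt8, Krt18 and Krt19. Mesothelial markers summed to 0.675 to 0.749 CPM in the controls and 0.707 to 4.11 in Zfx-KO, with the highest sum in the second Zfx-KO library, and 1 of the 4 tested of 8 was higher (Lrrn4, adjusted p = 0.0363, which ended under 7 of 13 settings, voom among them). In the Zfx-KO libraries Upk3b had 3, 31 and 0 reads, Lrrn4 7, 26 and 3, and Wt1 0, 12 and 3. The controls had 0, 0 and 3 of Lrrn4 and none of Upk3b or Wt1. Msln, the most abundant of the 8, had 30, 26 and 18 reads in the controls, against 25, 51 and 35 in Zfx-KO. The Msln difference of 0.45 did not pass (limma adjusted p = 0.37). The second Zfx-KO library also held the most reads of Krt18 and Krt7 among the Zfx-KO libraries. For Vil1 it held 6 against 5 in the third, and for Epcam 2 against 1. Krt8 and Krt20 had the most reads in the third. The part of mesothelial cells in those values was not tested. Krt8 and Krt19 without the second Zfx-KO library differed by 8.32 and 2.81 (limma adjusted p = 4.51e-05 and 0.00617), and Muc1 by 0.43 (0.133).

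Endothelial markers rose from 22.2 to 29.4 CPM in the controls to 116 to 144 in Zfx-KO, with all 10 of 10 tested higher, and pericyte markers from 310 to 359 to 531 to 677, with 8 of 8 higher. The pericyte sum was carried by Cspg4 and Pdgfrb, which differed by 0.62 and 0.27. The scarcer pericyte markers Rgs5 and Abcc9, named after their values were seen, differed about as much as Krt8. Rgs5 had 35, 4 and 9 reads in the controls, against 4040, 4709 and 2413 in Zfx-KO (8.12, limma adjusted p = 5.49e-06), and Abcc9 had 0 in the controls, against 486, 515 and 296 (2.74e-07). Fibroblast markers went from 8337 to 9966 to 14221 to 17225 (8 higher and 1 lower of 10), and leukocyte markers from 26.1 to 101 to 53.2 to 124 (1 higher of 10, Lyz2, a call that ended under 7 of 13 settings). Col3a1, the largest part of the fibroblast sum, differed by 0.30. Other collagen genes, named after their values were seen, differed far more. Col1a2 had 179, 107 and 243 reads in the controls, against 50826, 57280 and 118554 in Zfx-KO (8.62, limma adjusted p = 1.27e-08), and Col1a1 rose by 5.66 (1.23e-08). Pecam1, the endothelial adhesion protein, rose by 2.44 (limma adjusted p = 5.82e-07). Some of the small differences ended or turned under other scalings, such as Dcn at 0.19 and -0.02 under equal medians. Rgs5, Abcc9 and Col1a2 differed about as much as Krt8. The median log2 difference was 6.10 over the pericyte markers, 2.98 over the endothelial, 2.46 over the fibroblast and 0.24 over the leukocyte markers. Of the other pericyte markers, Kcnj8, Notch3, Higd1b and Mcam rose by 6.90, 6.44, 5.75 and 4.84, while Cspg4 and Pdgfrb differed little. Col3a1 and Dcn of the fibroblast list also differed little. Dpt did not pass (-0.18, limma adjusted p = 0.477) and Pdgfra was lower (-0.43, 0.000684). The part of endothelial cells, pericytes, fibroblasts and leukocytes in the differences of Krt8, Krt19 and Muc1 was not tested.

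**Figure D4:**
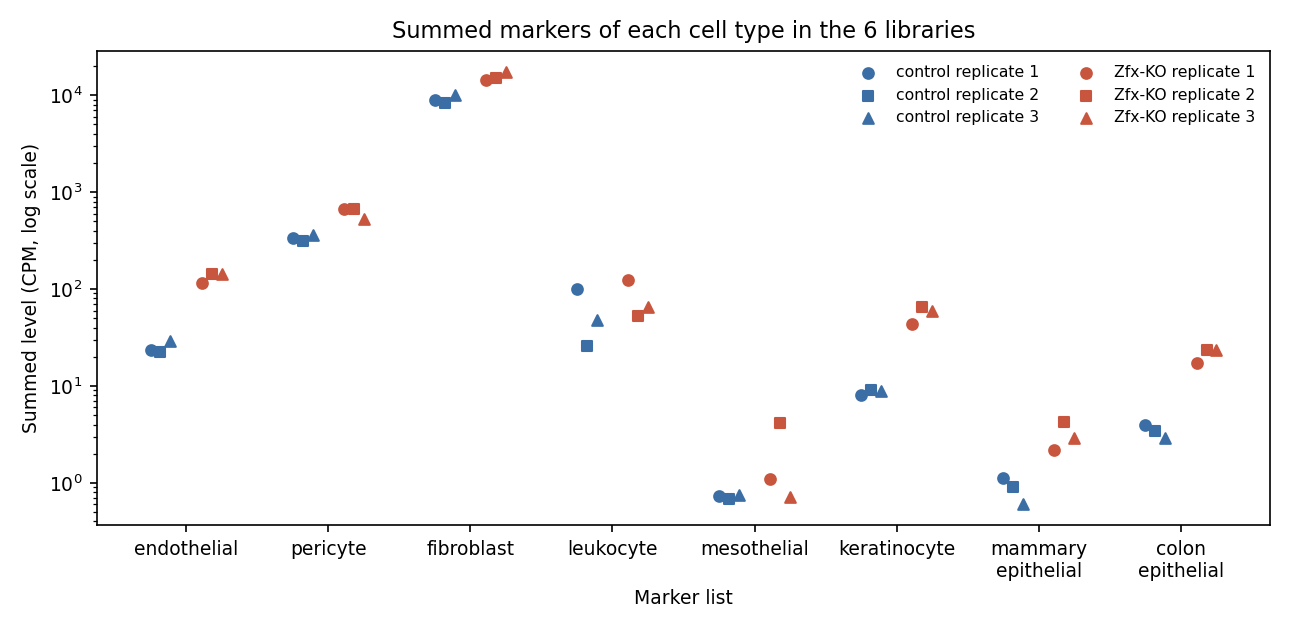
Summed CPM of the markers of each cell type (vertical axis, log scale) in the 3 control libraries (blue) and the 3 libraries labelled Zfx-KO (red). The endothelial, pericyte, fibroblast, keratinocyte, mammary and colon epithelial sums lie higher in every Zfx-KO library than in any control. In Zfx-KO the keratinocyte, mammary and colon epithelial sums are mostly Krt14, Krt5 and Krt8. The mesothelial sum reaches 4.11 in the second Zfx-KO library.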

How the data were processed

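RNA was sequenced from sorted tumor cells in 6 libraries, grouped by the genotype label. The authors deposited one table of log2 values for 52636 genes. Genes without reads stood at -5.48715, and reading the deposited log2 values as log2 CPM with a prior of 1 read scaled to library size gave whole reads, within 0.05, for 100% of 97809 values under 2000 reads. These recovered reads gave the depths, ratios, RPKM and bounds, with 3 reads as the floor; intervals are exact at 95% and cover counting error only. No aligner or counter is given in the sources used here, and the submitters' processing notes name GRCh38 and mm10 without a role. Start and end are those of the deposited table, and chromosome and strand those of GENCODE M21 (GRCm38), where 99.7% of identifiers were found and 85.4% had the same start and end. RPKM used the gene size given in the deposited table.

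Kept were the 20094 genes whose mean was at least 1 log2 unit over the floor and that exceeded it in 3 or more libraries. They were fitted with limma 3.58.1 (trend, R 4.3.3), two-sided, with Benjamini-Hochberg adjustment over all of them and a threshold of 0.05. Single values were also compared by exact permutation. Chi-square per gene between replicates was 13.2 to 25.4, beyond sampling noise, and each counted once. Sequence windows of 50 bases were matched to annotated transcripts, so copies that are not annotated were not seen. Alternatives were other filters, scalings, priors, limma voom and leaving out each library. Named genes were the 10, Zfx, up to 4 per list by p among called genes whose groups did not overlap and whose higher mean was at least 3 log2 units above the floor, the 2 most abundant where there were none, and 2 per marker list; others were named after their values were seen, and some genes that this rule took are not reported here. The 10 genes and all lists were chosen with earlier results of these data known. Figures used matplotlib 3.10.9, and tables and exact tests used scipy 1.17.1, numpy 2.4.6 and pandas 2.3.3 in Python 3.11.15.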

Additional observations from a re-analysis of the deposited data

How the results depend on the processing

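Of 75 values of single genes under 13 alternative settings, 60 kept direction and side of the threshold, 10 lost the call, 2 gained it and 3 turned. Krt8 and Zfx kept their calls under all 13. With no filter the genes called went from 8927 to 5787, those higher from 5003 to 3076, and the followed genes higher from 3 to 1. Equal medians gave 3224 higher and 6357 lower against 5003 and 3924; that setting and quantile normalization each moved the median of all genes by -0.21, and the share of calls that were higher went from 56% to 33.6% and 47.5%. The turned values were those of Cdh1, at -0.03 with equal medians, -0.33 with quantile normalization and -0.11 without the third control library (range -0.11 to 0.35 over single libraries left out). Of 260 counts of calls in lists, 24 moved by over 1.5 times, among them the repressors with 0 higher and 4 lower under equal medians. With a filter 3 log2 units above the floor Krt7, Krt19 and Vil1 were not retained. The cause of these changes was not tested. No paired analysis was possible because the labels carry no replicate numbers and the numbers used here only name the libraries. At 3 reads per library the depth limits Epcam, Krt20, Krt18 and Cdx2.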
